A study of Mus musculus with 8 samples.

Results

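The 10 genes described here are the FOS family (Fos, Fosb, Fosl1 and Fosl2), the JUN family (Jun, Junb and Jund), and the stimulus-response genes Atf3, Egr1 and Ier2. They were chosen by symbol, as a named family and not by a rule on their values, though earlier results of these data were known. The count table of mouse lung tumour nodules held 52459 genes, and all 10 were among the 14085 genes with enough reads to test. The 8 RNA-seq libraries came from frozen nodules of a genetically engineered lung cancer model on a mixed background. All mice carried that model, and 4 groups of 2 libraries received vehicle, JQ1, an anti-PD-1 antibody, or both agents together. JQ1 keeps the BET bromodomain proteins from binding acetylated histones, and the antibody blocks PD-1, a receptor that restrains T cells. In the sources used here, the form of the alleles, the Cre that starts the tumours, ages, doses and times are not stated. The labels do not say that libraries of 1 group came from separate mice, so p-values measure the spread between these libraries, which may be technical.

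FOS and JUN proteins pair through a leucine zipper to form the transcription factor AP-1, in which JUN proteins can pair with each other or with a FOS protein, while FOS proteins need a partner. Many of these genes are immediate early genes: growth factor signalling through RAS, RAF, MEK and ERK induces them within minutes through serum response factor and its ternary complex partners, without new protein synthesis. FRA-1, the product of Fosl1, is known as an AP-1 subunit that accumulates under ERK signalling.

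The stretch just upstream of the start site is printed for Fos, whose groups overlapped, and for Jun and Junb. The latter 2 were lower in both groups given JQ1 than in vehicle, as 22.9% of all genes were for JQ1 and 29.1% for the combination. None of these differences passed an edgeR adjusted p under 0.05. Junb was also lower in both anti-PD-1 libraries than in vehicle, as for 16% of all genes. RefSeq promoters (GRCm38.p6) were matched by symbol for 7 of the 10 genes: Atf3, Fos, Fosb, Fosl2, Jun, Junb and Jund. Each run below is the 250 bases upstream of the RefSeq start site, 5′ to 3′ on the gene's own strand, at chr12:85473640-85473889 (plus strand) for Fos, chr4:95052223-95052472 (minus strand) for Jun and chr8:84978749-84978998 (minus strand) for Junb. Capitals mark matches on either strand to TGACG, the core of the cyclic AMP response element, to the AP-1 element TGANTCA, or to its variant TGACNTCA. The first and the last overlap where TGACG is followed by TCA.
Fos: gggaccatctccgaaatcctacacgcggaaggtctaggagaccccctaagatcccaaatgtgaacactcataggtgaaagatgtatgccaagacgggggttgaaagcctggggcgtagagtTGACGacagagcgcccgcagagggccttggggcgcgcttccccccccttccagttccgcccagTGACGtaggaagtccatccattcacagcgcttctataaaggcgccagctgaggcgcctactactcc
Jun: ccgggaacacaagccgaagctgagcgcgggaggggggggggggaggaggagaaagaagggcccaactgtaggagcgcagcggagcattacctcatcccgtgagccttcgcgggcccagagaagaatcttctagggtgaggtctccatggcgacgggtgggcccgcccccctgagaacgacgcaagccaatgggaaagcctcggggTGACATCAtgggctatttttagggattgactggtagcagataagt
Junb: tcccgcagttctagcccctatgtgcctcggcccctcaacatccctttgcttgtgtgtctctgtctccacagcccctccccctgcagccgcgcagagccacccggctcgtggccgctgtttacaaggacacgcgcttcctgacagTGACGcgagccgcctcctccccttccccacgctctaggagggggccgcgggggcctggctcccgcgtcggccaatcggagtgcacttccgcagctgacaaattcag
The Fos window held TGACG at −129 and −66, the Junb window held it at −106, and the Jun window held TGACATCA at −45, counting bases back from the start site. TGACG or its complement was in 17.75% of 32817 RefSeq promoter windows of this length, TGACNTCA in 7.493% and TGANTCA in 6.753%. The CArG element, which serum response factor binds, was in 1.469% of these windows and in none of those printed. Sites further upstream were not searched. These matches are a description of the letters, and none was tested for binding.

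Depth ran from 2719816 counted reads, in combination replicate 1, to 15224108. Ribosomal RNA genes took 21.8% to 24.2% of reads in the 4 libraries without JQ1 and 27.7% to 52.5% in the 4 with it. Expression is given as CPM, the reads of a gene scaled by library size and TMM factor. Hexim1, a gene whose rise is used as a readout of BET inhibition, did not rise here. It was at 29.4 to 47.4 CPM without JQ1 and 9.23 to 29.8 CPM with it, and these ranges overlapped. In JQ1 against vehicle its log2 difference was −0.63 (adjusted p = 0.608 by the edgeR quasi-likelihood F test), which did not pass. The 11 tumour epithelium markers summed to 6888 to 10011 CPM without JQ1 and 5729 to 9932 CPM with it, which overlapped, and each marker had reads in at least 1 library. Single markers moved in opposite directions under that sum. With JQ1 over both backgrounds 3 of the 11 were higher and 2 lower at an edgeR adjusted p under 0.05, against 8.28% of all genes. Summed airway markers (8 genes) were 20.7 to 133 CPM without JQ1 and 178 to 612 CPM with it. Fibroblast markers (10 genes) were 974 to 1626 CPM without JQ1 and 410 to 754 CPM with it, and smooth muscle markers (7 genes) 210 to 327 CPM and 61.4 to 156 CPM. Most of the fibroblast sum was Col1a1, with a mean of 955 CPM in vehicle. Of 9 fibroblast markers tested, 1 was higher and 1 lower with JQ1 over both backgrounds at an edgeR adjusted p under 0.05. The fibroblast sum therefore does not stand for the markers as a set. Endothelial markers (12 genes) were 122 to 211 CPM without JQ1 and 219 to 310 CPM with it. Macrophage markers (12 genes) overlapped, at 327 to 484 CPM and 238 to 531 CPM, and so did the 12 T and B cell markers, at 3.28 to 5.80 CPM and 0.842 to 3.78 CPM. Neutrophil markers (8 genes) were 2.14 to 3.0 CPM without JQ1 and 3.63 to 12.5 CPM with it, and mitochondrial genes took 2.55% to 3.07% and 4.86% to 5.47% of reads. By Xist, both vehicle libraries were male and each other group held 1 female and 1 male library. The ribosomal and mitochondrial RNA shares and the airway, fibroblast, smooth muscle, endothelial and neutrophil sums separated the libraries with JQ1 from those without, and their part in the results below was not tested beyond the fits named there. In bulk nodules fewer cells of a type and less RNA per cell cannot be told apart.

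Scaled for exon length, the order of the 10 genes in vehicle nodules ran from the constitutive Jund down to Fosb. Mean CPM per kb of exon was 218 for Jund, 32.8 for Junb, 15.8 for Fosl2, 10.8 for Jun and 10.5 for Egr1, then 6.89 for Fos, 3.70 for Ier2, 2.05 for Atf3, 0.324 for Fosl1 and 0.211 for Fosb (n = 2 each). Jun and Egr1, neighbours in that order, overlapped between libraries. The libraries were captured with probes, so a level also depends on how well each gene is covered.

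The question put by the design is how BET inhibition, PD-1 blockade and both together act on these nodules. Averaged over nodules with and without the antibody, Fosl1 rose and Jun and Egr1 fell with JQ1. That is 1 of 10 genes higher and 2 lower by the edgeR quasi-likelihood F test at a Benjamini-Hochberg adjusted p under 0.05, against 8.28% of all genes tested. The median log2 fold change of the 10 genes was −0.50, and of all genes 0.06. In combination against vehicle only Egr1 passed that test, lower, against 4.8% of all genes. In JQ1 alone against vehicle the count was 0 of 10, against 0% of all genes. There 5 of the 10 had an unadjusted p under 0.05 by edgeR, where 10.1% of all genes did. The count was also 0 of 10 with DESeq2, which called 80 of 14085 genes, and with limma voom, which called 0. Anti-PD-1 alone also gave 0 of 10, against 0% of all genes, with 2 at an unadjusted p under 0.05 by edgeR, against 1.97% of all genes there. It gave 0 of 10 with DESeq2, which called 11 of 14085 genes, and with limma voom, which called 0. The comparisons with vehicle share its 2 libraries. Counting genes whose libraries do not overlap, 5 of the 10 were lower in both JQ1 libraries than in both vehicle libraries (22.9% of all genes) and 2 were higher (26.3%). For anti-PD-1, 3 were lower (16%) and 1 higher (14.4%), and for the combination 3 were lower (29.1%) and 2 higher (29.5%).

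**Figure D1:**
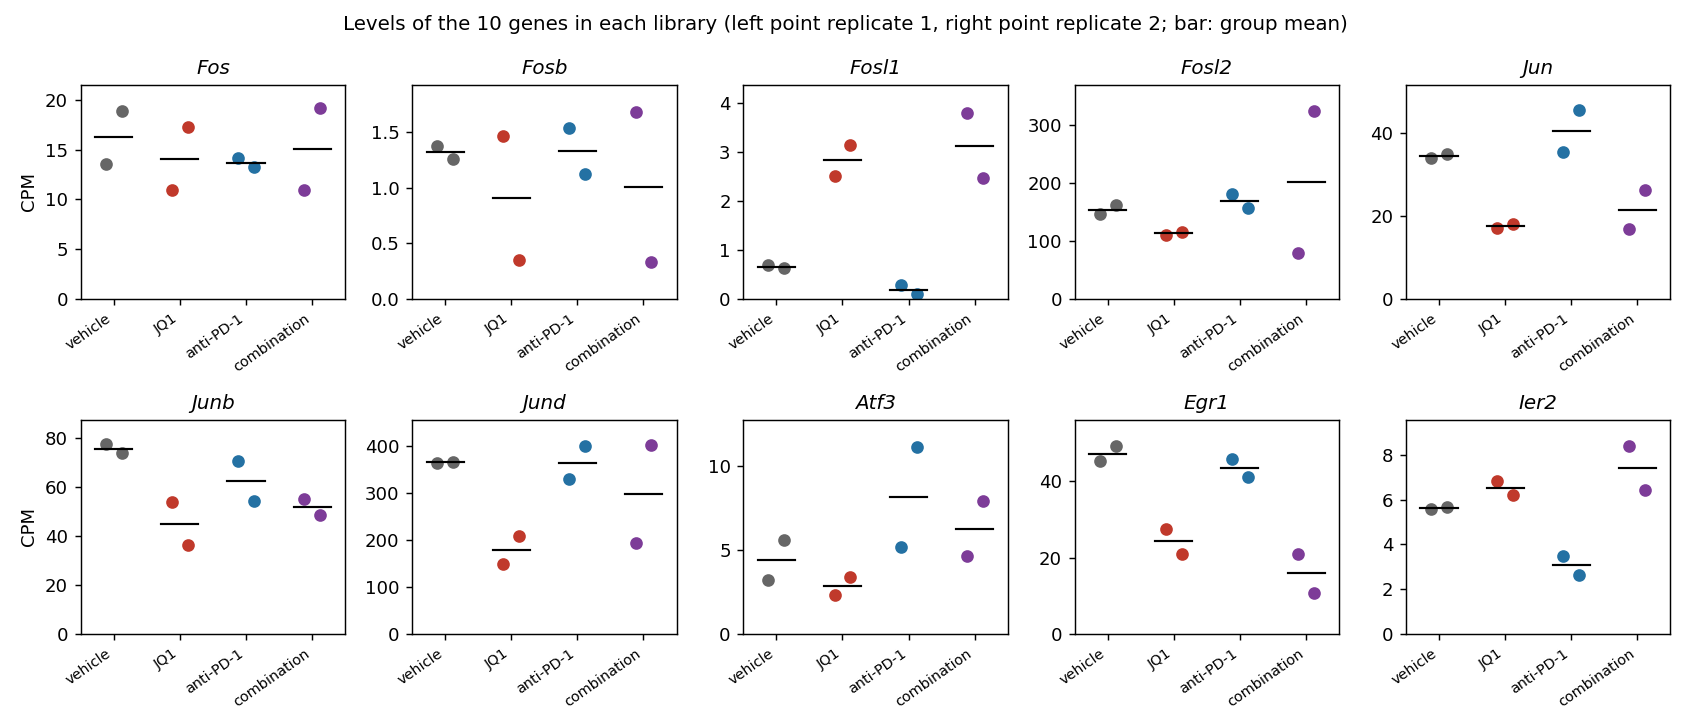
CPM of each of the 10 genes (y axis, linear, from 0) in the 4 groups (x axis). Points are single libraries, replicate 1 left and replicate 2 right, and bars are group means of 2 libraries. Fosl1 is at 2.47 to 3.79 CPM in the 4 libraries given JQ1 and at 0.0939 to 0.687 CPM in the other 4, while Fos overlaps in all groups.

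Fosl1 encodes FRA-1, a FOS protein without the strong transactivation domain of FOS itself. Its counts were 9 and 11 reads in vehicle, 24 and 36 in JQ1, 4 and 1 in anti-PD-1, and 9 and 15 in the combination. In CPM that was 0.687 and 0.631 in vehicle, 2.52 and 3.14 in JQ1, 0.279 and 0.0939 in anti-PD-1, and 3.79 and 2.47 in the combination. Every library given JQ1 was above every library without it, as for 10.2% of all genes. Over both backgrounds Fosl1 rose by 2.98 on the log2 scale (SE 0.49, 7.91-fold, adjusted p = 0.0172 by the edgeR quasi-likelihood F test, Benjamini-Hochberg adjusted). Against vehicle alone the log2 differences were 2.09 for JQ1 (adjusted p = 0.443) and 2.19 for the combination (adjusted p = 0.0754) by the same edgeR test, neither of which passed. The call was lost without vehicle replicate 1 (log2 3.0, adjusted p = 0.0715), vehicle replicate 2 (2.94, 0.0856) or anti-PD-1 replicate 2 (2.72, 0.0540), all by edgeR. In a fit with a ribosomal RNA share term it was 4.04 (adjusted p = 0.432, edgeR), and over all alternatives the adjusted p ran from 0.000105 to 0.432. The gene lies at chr19:5447547-5455946 on the plus strand, and 57.2% of its exon bases are shared with Ccdc85b on the other strand. Whether counting used strand is not given, so reads of this pair cannot be told apart; Ccdc85b itself stood at 1.68 to 3.67 CPM, with overlapping groups.

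Fosl2 encodes FRA-2 and was the most abundant FOS gene per kb. It was at 146 and 161 CPM in vehicle, 110 and 116 in JQ1, 180 and 156 in anti-PD-1, and 78.7 and 323 in the combination. The 2 combination libraries thus lay below and above all the others. Its log2 difference in the combination was 0.40 (SE 0.51, adjusted p = 0.645 by the edgeR quasi-likelihood F test, Benjamini-Hochberg adjusted). Without combination replicate 1 the value was 1.07 (adjusted p = 0.0421) and without combination replicate 2 it was −0.99 (adjusted p = 0.136), both by edgeR, so its direction rests on which library is kept.

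Fos, the archetype of the immediate early genes, was at 13.6 and 18.8 CPM in vehicle, 10.9 and 17.3 in JQ1, 14.1 and 13.2 in anti-PD-1, and 10.9 and 19.1 in the combination. No group of Fos values stood apart from another. Over both backgrounds its log2 difference with JQ1 was −0.02, with a 95% interval from −0.62 to 0.58. Fosb, whose product is known for its stable truncated form in neurons, had 2 to 22 reads per library. It was at 1.37 and 1.26 CPM in vehicle, 1.47 and 0.349 in JQ1, 1.54 and 1.13 in anti-PD-1, and 1.68 and 0.330 in the combination. With 6 Fosb reads in both combination libraries together, the 95% interval over both backgrounds ran from −2.05 to 0.82. Any difference inside that range is compatible with these reads.

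Jun, a gene at chr4:95049034-95052222 on the minus strand, encodes c-JUN, a strong transactivator and a classic partner of FOS. It was at 34.1 and 34.9 CPM in vehicle, 17.2 and 18 in JQ1, 35.5 and 45.5 in anti-PD-1, and 16.8 and 26.4 in the combination. The 4 libraries given JQ1 were all below the 4 without it, as for 9.35% of all genes. Junos on the other strand shares 7.3% of the exon bases of Jun, with the same limit on strand as for Fosl1. Over both backgrounds Jun fell by 0.93 on the log2 scale (SE 0.22, adjusted p = 0.0345 by the edgeR quasi-likelihood F test, Benjamini-Hochberg adjusted). That call was lost without vehicle replicate 1, vehicle replicate 2, JQ1 replicate 1, JQ1 replicate 2, anti-PD-1 replicate 1 or anti-PD-1 replicate 2, with log2 differences of −0.95, −0.93, −0.93, −0.96, −1.03 and −0.85 and edgeR adjusted p between 0.0657 and 0.129. In a fit with a ribosomal RNA share term it was −1.54 (adjusted p = 0.551, edgeR), and over all alternatives the adjusted p ran from 0.00299 to 0.551.

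Jund, at chr8:70698949-70700616 on the plus strand, encodes a JUN protein present in resting cells. It was at 363 and 365 CPM in vehicle, 149 and 209 in JQ1, 330 and 398 in anti-PD-1, and 194 and 401 in the combination. Both JQ1 libraries were below both vehicle libraries, while the combination libraries lay on either side of vehicle. Over both backgrounds the log2 difference was −0.66 (SE 0.24, adjusted p = 0.0988 by the edgeR quasi-likelihood F test, Benjamini-Hochberg adjusted), which did not pass. The antisense gene Gm11175 shares 52.6% of the exon bases of Jund, with the same limit on strand, and was at 7.82 to 10.7 CPM without JQ1 and 2.10 to 5.32 CPM with it. Junb, a JUN protein that can restrain c-JUN, was at 77.3 and 73.6 CPM in vehicle, 53.6 and 36.3 in JQ1, 70.6 and 54.2 in anti-PD-1, and 55.1 and 48.5 in the combination. Vehicle was the highest group for Junb, and its log2 difference with JQ1 over both backgrounds was −0.51 (adjusted p = 0.119 by the same edgeR test). Prdx2 on the other strand shares 7.5% of the exon bases of Junb, with the same limit on strand. Prdx2 was at 12.2 and 14.4 CPM in vehicle, 23.1 and 23.6 in JQ1, 14.1 and 10.7 in anti-PD-1, and 16.0 and 21.4 in the combination.

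Egr1 encodes a zinc finger transcription factor induced through serum response factor. It was at 45.4 and 49.2 CPM in vehicle, 27.6 and 21.0 in JQ1, 45.8 and 41.0 in anti-PD-1, and 21.0 and 10.7 in the combination. The lowest value was in combination replicate 2, and no library given JQ1 reached the level of any without it, as for 9.35% of all genes. Egr1 fell by 1.23 on the log2 scale over both backgrounds (SE 0.24, adjusted p = 0.0253) and fell by 1.61 in the combination against vehicle (SE 0.35, adjusted p = 0.0367), by the edgeR quasi-likelihood F test, Benjamini-Hochberg adjusted. The first call was lost without vehicle replicate 1 (log2 −1.26, adjusted p = 0.0876), vehicle replicate 2 (−1.21, 0.106), JQ1 replicate 2 (−1.15, 0.0522), anti-PD-1 replicate 1 (−1.20, 0.0686) or anti-PD-1 replicate 2 (−1.28, 0.0649), all by edgeR. The second was lost without vehicle replicate 1 (−1.68, 0.185), vehicle replicate 2 (−1.57, 0.210), anti-PD-1 replicate 1 (−1.63, 0.0543), anti-PD-1 replicate 2 (−1.63, 0.0542) or combination replicate 2 (−1.19, 0.140), and with only the libraries compared (−1.61, 0.0640). In a fit with a ribosomal RNA share term the values were −0.72 (adjusted p = 0.826) and −0.84 (adjusted p = 0.892) by edgeR. Over all alternatives the adjusted p ran from 3.58e-05 to 0.826 for the first and from 0.00025 to 0.892 for the second.

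Atf3 encodes a stress-induced factor of the ATF family that pairs with JUN proteins. It was at 3.21 and 5.62 CPM in vehicle, 2.31 and 3.40 in JQ1, 5.17 and 11.2 in anti-PD-1, and 4.63 and 7.91 in the combination. Both anti-PD-1 libraries were above both JQ1 libraries, and each group overlapped vehicle. With the antibody over both backgrounds the log2 difference was 1.02 (SE 0.37, adjusted p = 0.399 by the edgeR quasi-likelihood F test, Benjamini-Hochberg adjusted). For that contrast 0 of the 10 genes passed, against 0.0142% of all genes, with 1 at an unadjusted p under 0.05 by edgeR, where 10.1% of all genes were. None of the 10 was called with DESeq2, which called 202 of 14085 genes, or with limma voom, which called 0. Ier2, an immediate early gene for a nuclear protein, was at 5.57 and 5.68 CPM in vehicle, 6.82 and 6.19 in JQ1, 3.49 and 2.63 in anti-PD-1, and 8.42 and 6.43 in the combination. Ier2 was lowest in anti-PD-1 and was higher in every library with JQ1 than in any without it, as for 10.2% of all genes. Against vehicle alone the log2 difference of Ier2 was 0.21 for JQ1 and 0.38 for the combination, and neither passed by edgeR. Its log2 difference with JQ1 over both backgrounds was 0.73 (SE 0.28, adjusted p = 0.106 by edgeR), which did not pass.

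**Figure D2:**
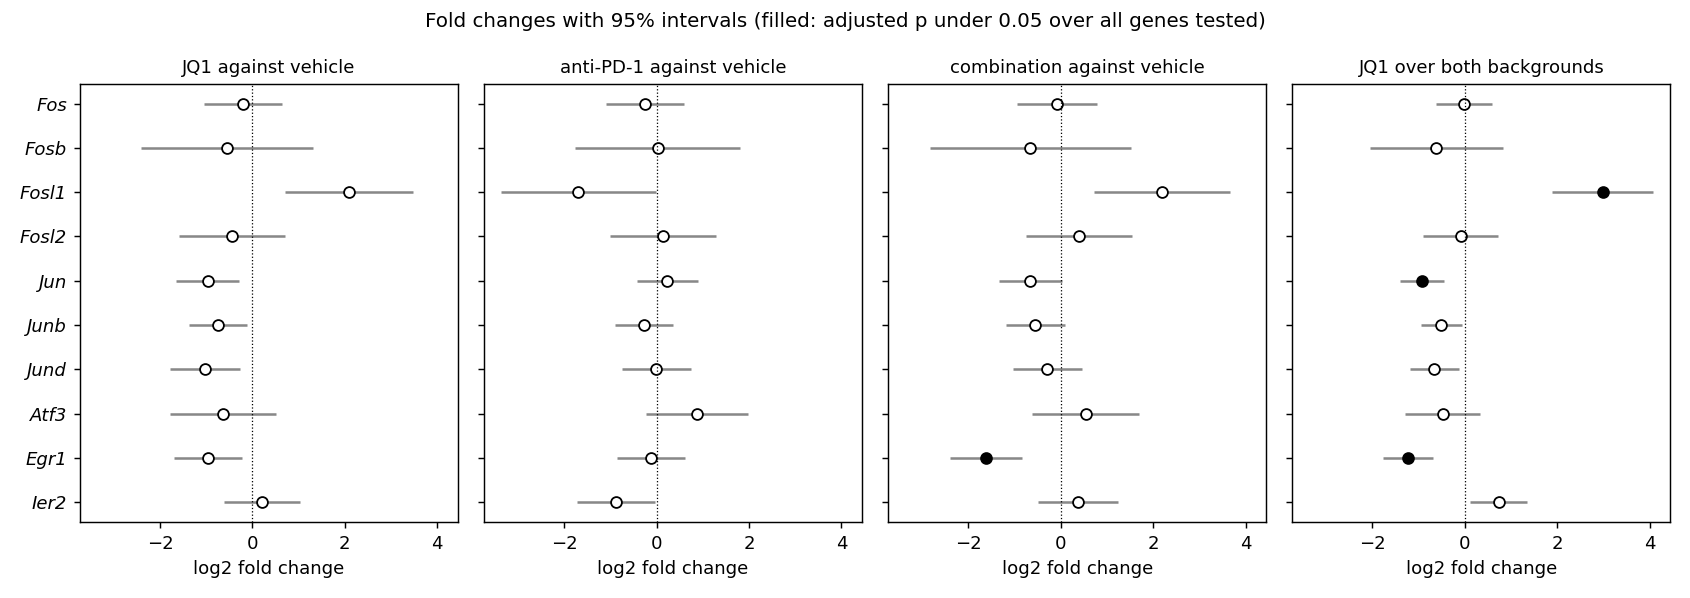
Log2 fold changes of the 10 genes (x axis) with 95% intervals in 4 contrasts, from 1 edgeR fit of 8 libraries. Filled points have an adjusted p under 0.05: Egr1 at −1.61 in the combination, and Fosl1 at 2.98, Jun at −0.93 and Egr1 at −1.23 for JQ1 over both backgrounds.

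Whether the agents together differed from the sum of each alone was tested as an interaction on the log scale. The count was 0 of 10, against 0% of all genes, with 0 at an unadjusted p under 0.05 by edgeR, where 6.25% of all genes were. It was also 0 of 10 with DESeq2, which called 22 of 14085 genes, and with limma voom, which called 0. The smallest edgeR p-values were for Ier2 (log2 1.04, 95% interval −0.17 to 2.26) and Fosl1 (log2 1.80, 95% interval −0.36 to 3.95). With 2 libraries per group, departures from additivity inside these intervals remain compatible with the data.

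Within the FOS family, the share of the length-scaled total held by Fosl1 was 1.58% and 1.24% in vehicle, 7.07% and 7.38% in JQ1, 0.55% and 0.21% in anti-PD-1, and 12.5% and 2.85% in the combination. The lower combination share is in the library where Fosl2 stood at 323 CPM. Fosl2 remained the largest FOS component in all 8 libraries, at 54.5% to 78.0%. In the JUN family, Jund held 75.6% to 89.1% in all 8 libraries. The summed JUN level was 262 and 262 CPM per kb in vehicle, 118 and 147 in JQ1, 239 and 277 in anti-PD-1, and 146 and 270 in the combination.

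**Figure D3:**
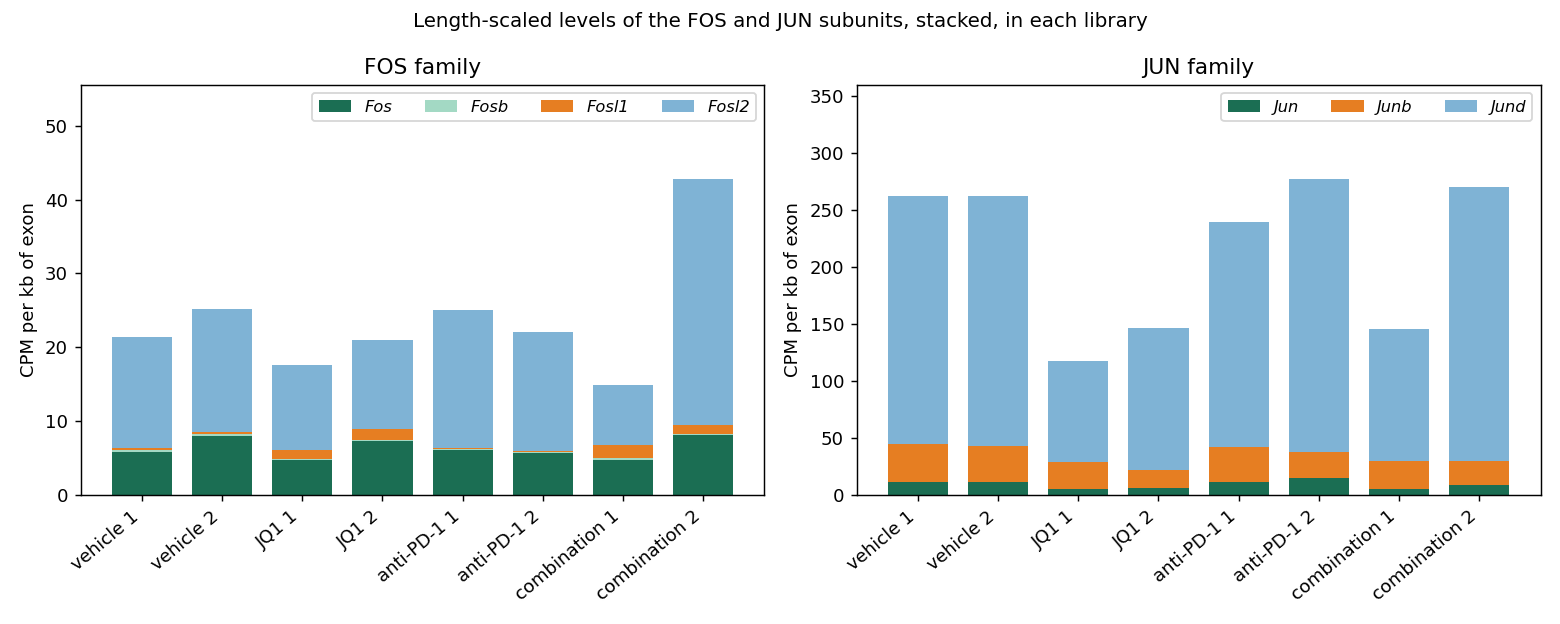
Stacked CPM per kb of exon (y axis) of the FOS genes, left, and the JUN genes, right, in each of 8 libraries (x axis). Fosl2 and Jund form the largest segment everywhere, and combination replicate 2 has the tallest FOS bar at 42.7 CPM per kb.

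The pathway around the 10 genes was read from 4 lists, whose counts stand against 4.8% of all genes called in the combination and 8.28% with JQ1 over both backgrounds. Among 25 genes for the kinases and serum response factors upstream, 3 fell and 0 rose in the combination, and 3 fell and 0 rose with JQ1 over both backgrounds (edgeR, as above). The list's median log2 difference was −0.64 in the combination, where that of all genes was 0.07. Srf, the serum response factor itself, was at 115 and 131 CPM in vehicle, 79.7 and 79.9 in JQ1, 121 and 127 in anti-PD-1, and 35.4 and 39.4 in the combination. Its libraries with JQ1 were all below those without, as for 9.35% of all genes. Srf fell by 1.72 in the combination (adjusted p = 0.0149) and by 1.18 over both backgrounds (adjusted p = 0.0107) by the edgeR quasi-likelihood F test, Benjamini-Hochberg adjusted. Mapk7, the kinase ERK5, fell by 1.96 and 1.15, and Rps6ka3, the ERK-activated kinase RSK2, fell by 1.19 and 0.81. Elk4, a ternary complex partner of serum response factor, had values of 0.93 and 0.66 that did not pass.

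Of 37 other immediate early genes tested, 2 rose and 2 fell in the combination, where 4.8% of all genes were called, with a median of 0.37. Cyr61, a secreted matrix protein, was at 47.7 and 71.3 CPM in vehicle and 7.15 and 15.5 CPM in the combination, and fell by 2.34. Hbegf, a ligand of the EGF receptor, fell by 1.82, while the kinase gene Sik1 rose by 2.01 and the stress phosphatase subunit Ppp1r15a rose by 2.15. With JQ1 over both backgrounds 1 rose (Sik1, 1.16) and 2 fell (Cyr61 by 1.66 and Hbegf by 0.95), a share near the 8.28% of all genes. Of 18 further bZIP partners, 2 rose (Cebpg 1.74 and Atf1 1.75) and 0 fell in the combination, against 4.8% of all genes, with a median of −0.09. Atf2, a JUN partner activated by stress kinases, had a value of −0.80 there and Mafg, a small MAF protein, one of 1.06, and neither passed. With JQ1 over both backgrounds 3 rose (Cebpg 1.18, Atf1 0.98 and Mafg 1.05) and 0 fell, against 8.28% of all genes.

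Of 21 AP-1 target genes tested, 0 rose and 1 fell in the combination: Vegfa, the angiogenic growth factor, by 1.36. That share is near the 4.8% of all genes. With JQ1 over both backgrounds Plaur, the urokinase receptor, rose by 1.28 on the log2 scale, while Vegfa fell by 1.05, a share near the 8.28% of all genes. Sphk1 had a log2 difference of 4.40 in the combination that did not pass, with 8.0 and 109 CPM in its 2 libraries, and Tgfb1 one of −1.02. All list calls in the combination, 10 in number, were lost when vehicle replicate 1, vehicle replicate 2 or combination replicate 2 was left out. Of 11 over both backgrounds, leaving out vehicle replicate 1 kept 2 and leaving out vehicle replicate 2 kept 0. Some calls of both contrasts were also lost when any JQ1 or anti-PD-1 library was left out. With only the libraries compared, 4 of the 10 were kept in the combination. A term for sex kept 6 of the 10 and 9 of the 11. In a fit with a ribosomal RNA share term 0 were kept in either contrast, and every sign was kept in these fits.

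**Figure D4:**
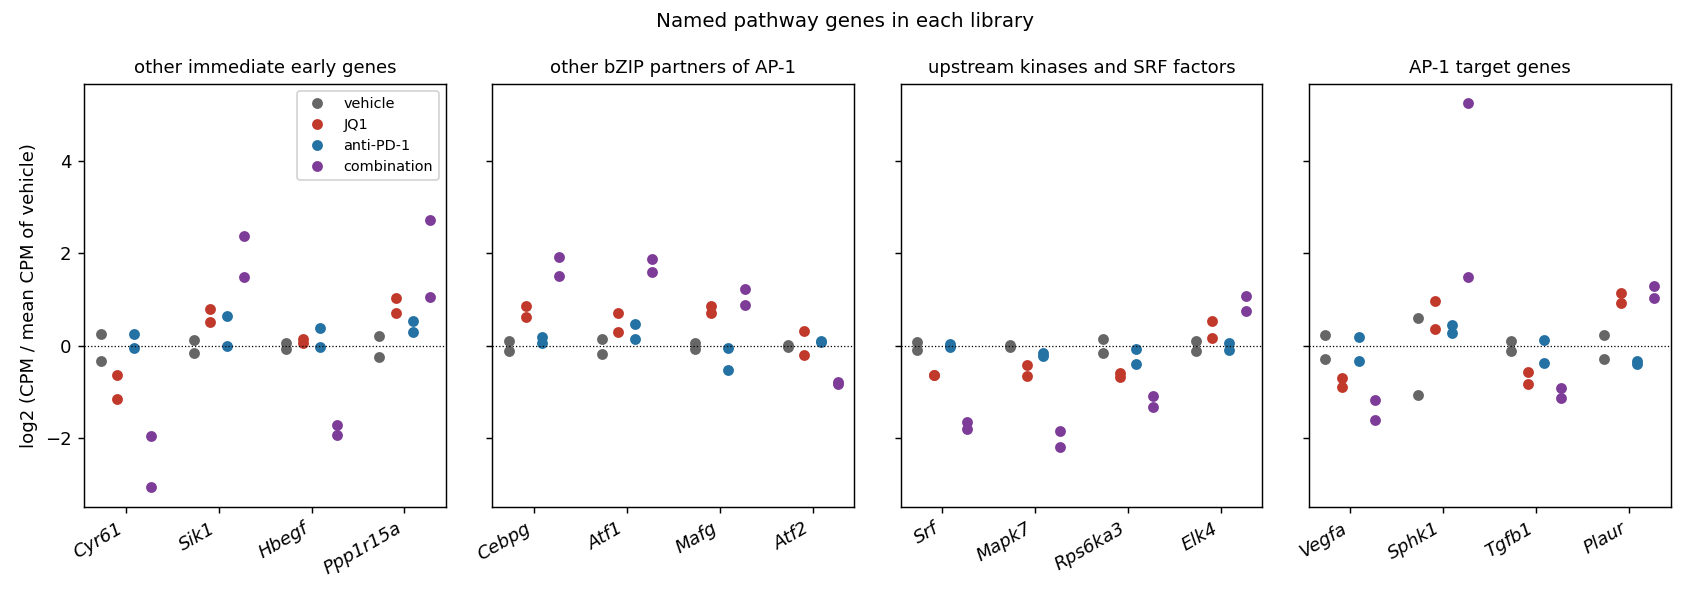
Log2 of CPM over the vehicle mean (y axis) for the 4 named genes of each list, with each library as a point coloured by group. In the combination Srf, Mapk7, Rps6ka3, Cyr61, Hbegf, Atf2, Vegfa and Tgfb1 lie below 0 in both libraries, and Sphk1 spreads widely.

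Over the 8 libraries the genes closest to Fos in log2 CPM were Gipc1 (Pearson r = 0.964), Tmem201 (0.957) and Ccdc84 (0.933), of 10711 genes compared. Those closest to Fosl1 were Nudt14 (0.989), Sike1 (0.988) and Mrfap1 (0.985). These are descriptions over libraries that share treatments and depth, and carry no test.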

How the data were processed

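Expression was measured in 8 probe-captured RNA-seq libraries of lung tumour nodules. The deposited values used are raw read counts per gene symbol; per the submitters' processing notes, bcl2fastq, STAR, featureCounts and DESeq2 were used with mm10 and GRCm38. Versions, annotation and strand setting: not given in the sources used here. A normalized table was also deposited and was not used. Genes kept by filterByExpr (14085 of 52459) were fitted with edgeR 4.0.16 in R 4.3.3, with TMM factors and 1 mean per group, which left 4 residual degrees of freedom (biological coefficient of variation 0.332). The 6 contrasts used the robust quasi-likelihood F test with Benjamini-Hochberg adjustment over all genes tested, and a call is an adjusted p under 0.05. The interaction is the combination minus JQ1 minus anti-PD-1 plus vehicle. SE is the log2 fold change over the root of F. CPM per kb used GENCODE exon unions on GRCm38. The fit was tested on simulated data in which only better-covered genes were changed, so that test does not bear on genes with few reads. Depth was 2719816 to 15224108 reads, and the lowest genes rest on 1 to 36 reads. Libraries of a group differed by more than sampling noise (chi-square per degree of freedom 19.4 to 42.1), so each counts once. Alternatives were RLE and upper-quartile factors, no low-count filter, DESeq2 1.42.0, limma voom (limma 3.58.1), only the libraries compared, terms for sex (read from Xist) and for the ribosomal RNA share, leaving out each library, and, chosen after seeing the data, removing ribosomal RNA genes. All 10 genes are named, plus, from each list, the 4 with the smallest p in combination against vehicle, and the 3 genes most correlated with Fos and with Fosl1 (log2(CPM + 0.5), predicted genes skipped). The genes and lists were chosen with earlier results of these data known. Some genes of the lists and the genotype of the model are not reported here, and list counts leave those genes out.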

Additional observations from a re-analysis of the deposited data

How the results depend on the processing

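With 2 libraries per group, calls depended on single libraries, while most directions did not. Of 989 member values under the alternatives, 895 kept direction and side of the threshold, 24 lost a call, 5 gained one and 65 changed sign, none of these 65 called in either fit. The number of the 10 genes called went from 0 to 1 (Jund) in JQ1 against vehicle with no filter on low counts, and from 1 to 0 in combination against vehicle with only the libraries compared or with the ribosomal RNA share term. With JQ1 over both backgrounds it went from 3 to 0 with that term. Leaving out each library gave 0 to 2 genes in combination against vehicle and 0 to 4 with JQ1 over both backgrounds. The ribosomal RNA share separates the groups with and without JQ1, so that fit has little precision. Upper-quartile factors gave 408 genes higher and 242 lower in the combination, against 344 and 332, and 812 and 361 with JQ1 over both backgrounds, against 595 and 571. The all-gene median moved from 0.07 to 0.14 and from 0.06 to 0.15. No paired analysis was possible because replicate numbers are in accession order only. For the sign changes the cause was not tested. In JQ1 against vehicle, Fos was 0.0144 with the sex term. In anti-PD-1 against vehicle, Jund was 0.00894 with RLE factors or DESeq2, 0.00897 with only the libraries compared, 0.00997 with ribosomal RNA genes removed and 0.24 with the sex term; Fos was 0.0161 and Fosb −0.37 with the sex term, and Fosb −0.0379 and Fosl2 −0.00243 with the ribosomal RNA share term. In combination against vehicle, Fos was 0.11 with the sex term, and the ribosomal RNA share term gave Fos 0.31, Fosl2 −2.95, Sphk1 −2.12 and Atf2 0.14. With JQ1 over both backgrounds, Fos was 0.0581 with upper-quartile factors, 0.0544 with the sex term and 0.23 with the ribosomal RNA share term, Fosl2 was 0.0119 with the sex term, and the ribosomal RNA share term gave Sphk1 −1.61 and Atf2 0.19. With the antibody over both backgrounds, Fosb was 0.00647 with DESeq2, Fos 0.0560 with the sex term, and the ribosomal RNA share term gave Fos 0.0853, Fosl2 −0.78 and Jun −0.0846. For the interaction, Fosb was 0.40 with the sex term, and the ribosomal RNA share term gave Fosl2 −1.55 and Jun −0.55. Leaving out each library in turn, the ranges that crossed 0 were as follows. In JQ1 against vehicle, Fos ran from −0.58 to 0.0801 and Fosb from −1.89 to 0.15. In anti-PD-1 against vehicle, Fos ran from −0.46 to 0.0101, Fosb from −0.22 to 0.22 and Jund from −0.14 to 0.13. In combination against vehicle, Fos ran from −0.59 to 0.23, Fosb from −1.97 to 0.33, Fosl2 from −0.99 to 1.07 and Jund from −0.93 to 0.13. With JQ1 over both backgrounds, Fos ran from −0.28 to 0.13 and Fosl2 from −0.78 to 0.25. With the antibody over both backgrounds, Fos ran from −0.31 to 0.12, Fosb from −0.69 to 0.62, Fosl2 from −0.20 to 0.82 and Junb from −0.17 to 0.12. For the interaction, Atf3 ran from −0.22 to 0.94, Fos from −0.15 to 0.73, Fosb from −1.43 to 1.18, Fosl2 from −0.69 to 1.38 and Jun from −0.33 to 0.35. At 1 to 36 reads per library, Fosl1 and Fosb had the widest intervals of the 10 genes with JQ1 over both backgrounds.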
